A study of Mus musculus with 70 samples.

Results

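The 10 genes described here are those of microglia and of complement C1q: Cx3cr1, P2ry12, Tmem119, Csf1r, C1qa, C1qb, C1qc, Trem2, Aif1 and Tyrobp. They were chosen by name from 24346 genes measured in the mouse dorsal hippocampus, and all 10 were among the 12994 genes whose mean reached 1 FPKM, which were tested. FPKM scales the fragments of a transcript to its length and to the size of the library, so it allows levels to be compared between genes.

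RNA was measured in 70 adult male mice (C57BL/6J), 1 library each, in 7 groups of 10 with 5 libraries of each of 2 harvest cohorts, collected 24 h apart. Home cage mice had neither wheel running nor training. Sedentary mice (0-0-0) did not run, and 5 groups ran. The first number of a name gives the days of initial running, the second the days without a wheel, and the third the days of renewed running. One group ran for 14 days (14-0-0), and 0-0-2 ran for 2 days only. After 14 days of running, mice rested for 7 days (14-7-0), for 7 days followed by 2 days of running (14-7-2), or for 14 days (14-14-0). All groups but home cage had 3 min of object location memory (OLM) acquisition, a training too short to form long-term memory in sedentary mice, and their tissue was taken 1 h later. Running was voluntary wheel running, so that the distance was not fixed by the experimenter. The study asked which exercise patterns keep the hippocampus ready for memory formation. The comparisons are therefore each group against sedentary, and 14-7-2 against 14-7-0, whose schedules differ by 2 days of reactivating exercise.

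Microglia are the resident macrophages of the brain, and they survey synapses with motile processes. Their survival rests on signals through the receptor Csf1r, and contact with neurons runs through Cx3cr1, which binds neuronal fractalkine, and P2ry12, which senses nucleotides released at sites of activity or damage. C1q starts the classical complement cascade; in the brain it is made mainly by microglia, binds to some synapses and can mark them for removal.

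C1q is a hexamer of trimers of 3 chains, and the genes of the chains lie side by side on chromosome 4. In the RefSeq annotation of GRCm38.p6 (the mm10 build), C1qb spanned chr4:136880126-136886200, C1qc chr4:136889801-136892936 and C1qa chr4:136895916-136898844, all on the minus strand, within 18719 bases. Trem2 lay at chr17:48346401-48352276 on the plus strand. Upstream stretches are shown for C1qb, C1qc and Trem2 because these genes rose and fell together between libraries in the values as deposited. There, with group means removed, Pearson's r of the 3 pairs was 0.814 to 0.866. With a trend in GC content and length removed, as described below, Pearson's r was 0.345 for C1qb with C1qc. It was then 0.379 for C1qb with Trem2 and 0.806 for C1qc with Trem2. The capitals mark GAGGAA or its reverse complement TTCCTC, the core of the site bound by PU.1, a transcription factor of the macrophage lineage. Each stretch is 120 bases from RefSeq (GRCm38.p6), written 5′ to 3′ on the gene's strand.

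C1qb: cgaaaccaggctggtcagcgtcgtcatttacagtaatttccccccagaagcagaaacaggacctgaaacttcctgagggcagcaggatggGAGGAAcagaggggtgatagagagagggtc

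C1qc: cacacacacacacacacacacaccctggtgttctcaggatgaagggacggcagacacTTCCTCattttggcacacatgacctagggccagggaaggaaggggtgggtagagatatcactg

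Trem2: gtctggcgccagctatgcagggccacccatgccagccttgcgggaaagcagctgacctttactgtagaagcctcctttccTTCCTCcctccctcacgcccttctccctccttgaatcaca

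The C1qb stretch was chr4:136886201-136886320 on the minus strand and ended at the base before the transcription start, with the match beginning 30 bases before that start. For C1qc the stretch was chr4:136893045-136893164 on the minus strand, and its match began 193 bases before the start used for the window, which lies 22 bases inside the gene as given above, or 171 bases before the end of that gene. The Trem2 stretch was chr17:48346281-48346400 on the plus strand, with the match beginning 40 bases before the start. Upstream windows of 250 bases were found for 6 of the 10 genes (Cx3cr1, P2ry12, C1qb, C1qc, Trem2 and Aif1). The letters were found on either strand in 4 of these 6 (C1qb, C1qc, Trem2 and Aif1) and also in 23.3% of all 32851 windows of the same length. The Aif1 stretch is not shown. With group means removed, Pearson's r of Aif1 as deposited was 0.213 with C1qb, -0.14 with C1qc and 0.061 with Trem2. With the trend removed it was 0.573 with C1qb, 0.0222 with C1qc and 0.114 with Trem2. A part of the site in the covariation was not tested. Tmem119, Csf1r, C1qa and Tyrobp had no entry.

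Of the other genes, P2ry12 lay at chr3:59216271-59262985, Cx3cr1 at chr9:120048683-120068296, Tmem119 at chr5:113793729-113800396 and Aif1 at chr17:35170986-35176083, all on the minus strand. Csf1r at chr18:61105572-61131139 and Tyrobp at chr7:30413782-30417582 were on the plus strand. Exons of 3 genes overlapped a gene on the other strand: Csf1r overlapped Hmgxb3 by 873 bases, Cx3cr1 overlapped Gm33858 by 78 bases and P2ry12 overlapped Med12l by 9 bases. Whether the counting used strand is not given in the sources used here, so reads in these bases cannot be assigned to 1 of the pair.

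The table holds no read counts, and depth is unknown from it. The study lists read totals by lane and barcode, which the labels do not link to these libraries. A relative depth, taken from the step between low FPKM values and set against sedentary replicate 0, lay between 0.346 and 1.48 in 69 libraries and at 0.0361 in 14-7-0 replicate 4. That library listed 10279 genes at 0 FPKM, against 6243 to 7199 in the others. Marker sums of choroid plexus epithelium (12 genes) ranged from 26.2 to 22081 FPKM between libraries. All 12 of these markers were called higher than sedentary in 14-0-0 and in 14-14-0, and 5 of 12 in home cage. Sums of 13 markers of hippocampal pyramidal and granule cells ranged from 502 to 2461 FPKM in sedentary, with a median of 2298. In every other group the lowest sum was 1599 FPKM (14-14-0) or more. The sedentary library with the low sum is part of the main comparisons with sedentary, and its part in them was not tested.

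All 10 genes were detected in every library. No library listed any of the 10 genes at 0, and their levels were between the 29.5th percentile (Aif1) and the 84.7th percentile (C1qb) of the genes tested. Over all 70 libraries, the order in FPKM was C1qb at 42.5 ± 6.43 FPKM (SD, n = 70), C1qa at 35.5 ± 8.20 FPKM, Tyrobp at 33.3 ± 4.93 FPKM, C1qc at 29.8 ± 8.16 FPKM and Csf1r at 24.5 ± 2.42 FPKM. Below these came P2ry12 at 18.5 ± 2.53 FPKM, Cx3cr1 at 15.4 ± 1.44 FPKM, Tmem119 at 9.67 ± 1.93 FPKM, Trem2 at 9.56 ± 2.14 FPKM and Aif1 at 5.30 ± 1.14 FPKM. Neighbours in this order were separated by more than their SDs at 3 steps only: Csf1r above P2ry12, Cx3cr1 above Tmem119 and Trem2 above Aif1. Tmem119 and Trem2 were the closest pair, with Tmem119 higher in 43 of 70 libraries.

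Markers of other macrophages and blood leukocytes were near the floor. Of 11 markers of perivascular and border macrophages, 1 passed the minimum mean, and their defining genes Mrc1, Cd163, Lyve1 and Pf4 had means of 0.516, 0.221, 0.175 and 0.918 FPKM. The sum of the 11 lay between 3.31 and 11.02 FPKM. Of 17 markers of monocytes, neutrophils and lymphocytes, only Lyz2, a lysozyme that macrophages also make, passed, at a mean of 6.72 FPKM. By limma it was called higher than sedentary in 14-0-0 (log2 difference 0.45, p = 0.00164), 14-7-0 (0.28, p = 0.0439), 14-14-0 (0.49, p = 0.00882) and home cage (0.32, p = 0.028). The smallest adjusted p was 0.279. With the mean log2 level of the choroid plexus markers in the fit, p was 0.0618, 0.0482, 0.476 and 0.325. The monocyte receptor Ccr2 had a mean of 0.0504 FPKM. Because the tissue was measured in bulk, fewer microglia and less RNA per microglial cell cannot be told apart in any of the values below.

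**Figure D1:**
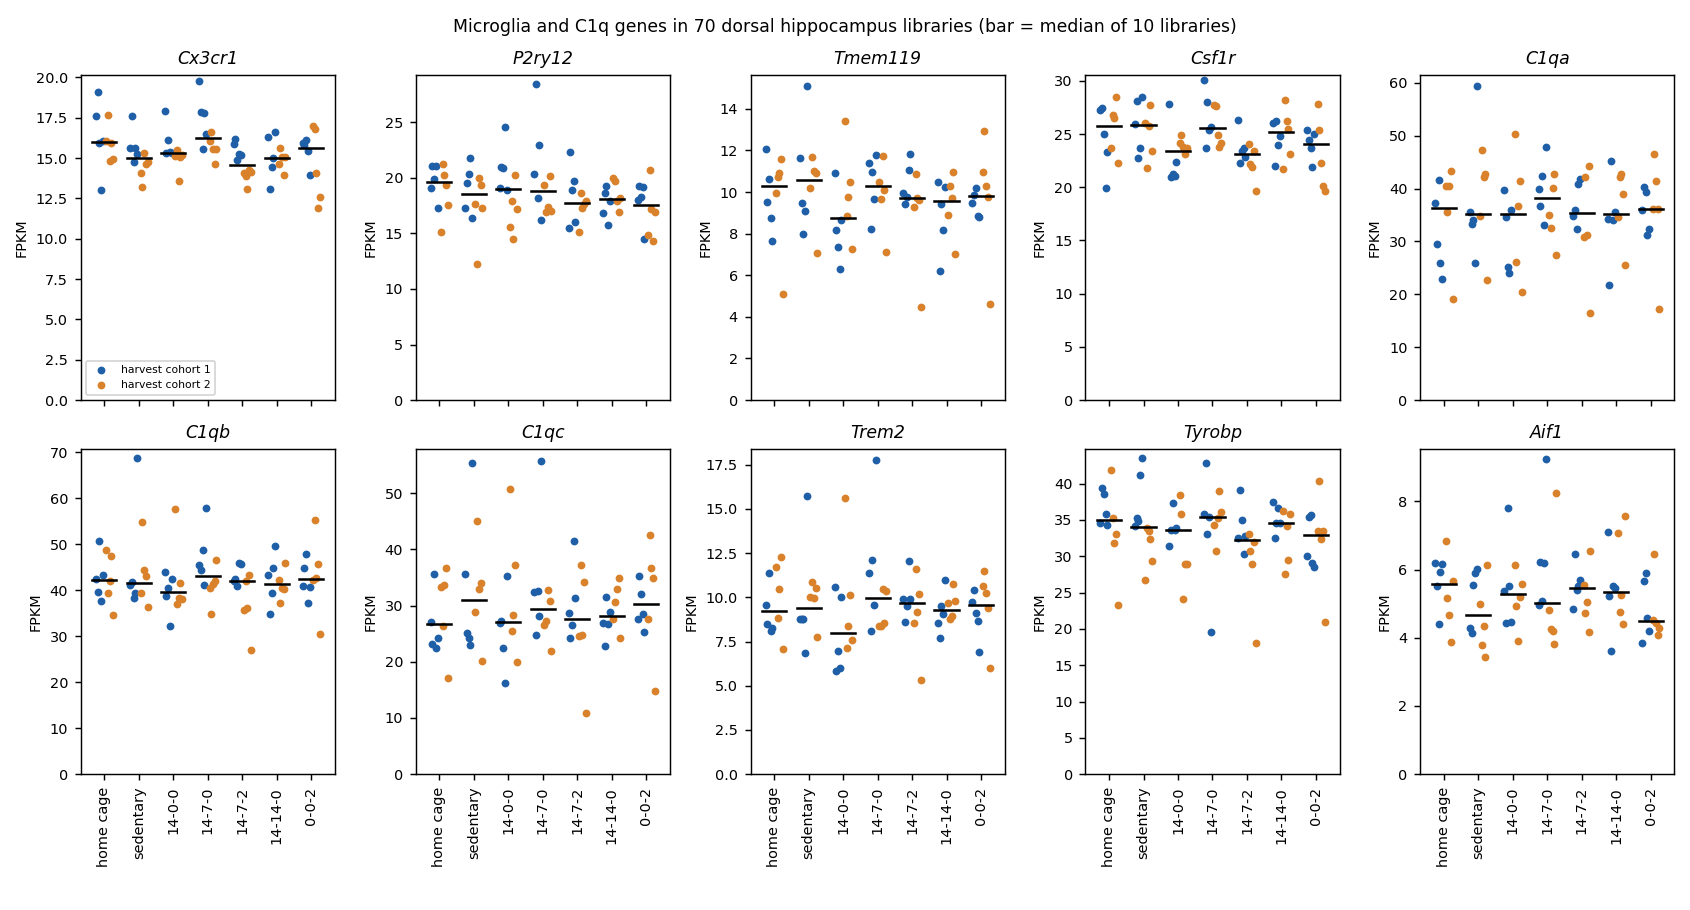
FPKM (linear axis from 0) of the 10 genes in each of 70 libraries, by group. Points are libraries, coloured by harvest cohort, and bars are medians of 10 libraries; Cx3cr1 sat lower in 14-7-2 than in 14-7-0, whereas for C1qa, C1qc and Trem2 single libraries lay far from their group.

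Cx3cr1, the fractalkine receptor, was the steadiest of the 10 genes between libraries, with a coefficient of variation (CV) of 9.37%. Sedentary libraries ranged from 13.2 to 17.6 FPKM with a median of 15.0 and home cage libraries from 13.02 to 19.1 (median 16.0). After running, the values were from 13.6 to 17.9 (median 15.3) in 14-0-0, from 14.6 to 19.8 (median 16.3) in 14-7-0 and from 13.1 to 16.2 (median 14.6) in 14-7-2. In 14-14-0 they lay from 13.1 to 16.6 (median 15.0) and in 0-0-2 from 11.9 to 17.0 (median 15.6). The highest median was that of 14-7-0 and the lowest that of 14-7-2, with overlap between all groups. Cx3cr1 was called higher in 14-7-0 than in sedentary (log2 difference 0.13 ± 0.06, SE; p = 0.0275, adjusted p = 0.968, limma), and 9 of 10 libraries were above the sedentary median. Without sedentary replicate 6, which had the lowest Cx3cr1 of its group, the difference was 0.11 (p = 0.0506), and within cohorts 1 and 2 it was 0.15 (p = 0.104) and 0.12 (p = 0.094). It was not called in the other 5 comparisons with sedentary, where the log2 difference lay between -0.04 and 0.09.

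Csf1r, the receptor for the survival factors Csf1 and Il34, varied almost as little, with a CV of 9.90%. In sedentary mice it ranged from 21.9 to 28.5 FPKM with a median of 25.9, and in home cage mice from 19.9 to 28.5 (median 25.8). Runners of 14-0-0 had values from 21.0 to 27.8 (median 23.4), those of 14-7-0 from 23.7 to 30.1 (median 25.5) and those of 14-7-2 from 19.6 to 26.3 (median 23.1). Values from 21.7 to 28.2 (median 25.2) were found in 14-14-0 and from 19.7 to 27.9 (median 24.1) in 0-0-2. The groups 14-7-2 and 14-0-0 had the lowest medians, and sedentary the highest, with overlapping ranges. Csf1r was called lower in 14-7-2 than in sedentary (log2 difference -0.14 ± 0.06, SE; p = 0.024, adjusted p = 0.847, limma), with 9 of 10 libraries below the sedentary median. Adjusted for the choroid plexus score, the mean log2 level of its markers, the difference was -0.11 (p = 0.0652), and within cohorts 1 and 2 it was -0.12 (p = 0.17) and -0.16 (p = 0.0904). In 14-0-0 the difference was -0.12 ± 0.06 (p = 0.0605), also with 9 of 10 libraries below that median. Without sedentary replicate 6, which had the lowest Csf1r of its group, the 14-0-0 difference was -0.14 with p = 0.0231.

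P2ry12, the nucleotide receptor of resting microglia, had a CV of 13.7%. Its level ranged from 12.2 to 21.7 FPKM with a median of 18.5 in sedentary and from 15.1 to 21.2 (median 19.6) in home cage mice. For 14-0-0 the values ran from 14.5 to 24.5 (median 19.0), for 14-7-0 from 16.2 to 28.5 (median 18.8) and for 14-7-2 from 15.1 to 22.3 (median 17.8). The remaining runners lay from 15.7 to 19.99 (median 18.1) for 14-14-0 and from 14.3 to 20.7 (median 17.6) for 0-0-2. One library of 14-7-0, replicate 1, reached 28.5 FPKM, and sedentary replicate 6 held the lowest value of all 70. P2ry12 was not called in any comparison with sedentary, where log2 differences lay between -0.07 and 0.11 with SEs of 0.08 to 0.10.

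Tmem119, a membrane protein used to tell microglia from blood-derived macrophages, had a CV of 19.9%. Sedentary libraries ranged from 7.08 to 15.1 FPKM with a median of 10.6 and home cage libraries from 5.12 to 12.1 (median 10.3). After running, the values were from 6.32 to 13.4 (median 8.76) in 14-0-0, from 7.11 to 11.8 (median 10.3) in 14-7-0 and from 4.49 to 11.8 (median 9.73) in 14-7-2. In 14-14-0 they lay from 6.21 to 10.98 (median 9.58) and in 0-0-2 from 4.61 to 12.9 (median 9.82). Its group medians stayed between 8.76 in 14-0-0 and 10.6 in sedentary, less than the spread within a group. All 6 log2 differences from sedentary were negative, from -0.19 in 14-0-0 to -0.03 in 14-7-0, and none was called. With the GC and length trend of each library removed, as described below, Tmem119 was at 0.07 in 14-7-0 and 0.003 in home cage.

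C1qa encodes the A chain of C1q. In sedentary mice it ranged from 22.7 to 59.4 FPKM with a median of 35.1, and in home cage mice from 19.1 to 43.3 (median 36.4). Runners of 14-0-0 had values from 20.4 to 50.3 (median 35.2), those of 14-7-0 from 27.5 to 47.8 (median 38.3) and those of 14-7-2 from 16.4 to 44.3 (median 35.3). Values from 21.8 to 45.3 (median 35.1) were found in 14-14-0 and from 17.2 to 46.5 (median 36.2) in 0-0-2. The range within sedentary alone covered most of the range of all groups. The largest log2 difference from sedentary was -0.18 ± 0.17 (SE) in 14-0-0, with 5 of 10 libraries above and 5 below the sedentary median. As deposited, C1qa was not called in the main comparisons with sedentary. With the GC and length trend removed, as described below, it was called higher in 14-7-0 (0.17, p = 0.0454, limma).

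C1qb, the B chain, was the most abundant of the 3 chains. Its level ranged from 36.4 to 68.7 FPKM with a median of 41.5 in sedentary and from 34.6 to 50.6 (median 42.2) in home cage mice. For 14-0-0 the values ran from 32.3 to 57.5 (median 39.6), for 14-7-0 from 34.9 to 57.9 (median 43.1) and for 14-7-2 from 27.1 to 46.0 (median 41.96). The remaining runners lay from 34.7 to 49.5 (median 41.2) for 14-14-0 and from 30.4 to 55.2 (median 42.4) for 0-0-2. Its group medians were within 39.6 to 43.1 FPKM. Differences from sedentary lay between -0.15 in 14-7-2 and 0.00 in 14-7-0 on the log2 scale, and no comparison was called.

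C1qc, the C chain, varied most of the 10 genes, with a CV of 27.4%. Sedentary libraries ranged from 20.2 to 55.4 FPKM with a median of 30.9 and home cage libraries from 17.2 to 36.7 (median 26.8). After running, the values were from 16.2 to 50.8 (median 27.1) in 14-0-0, from 21.96 to 55.7 (median 29.4) in 14-7-0 and from 10.9 to 41.6 (median 27.6) in 14-7-2. In 14-14-0 they lay from 22.9 to 34.8 (median 28.2) and in 0-0-2 from 14.8 to 42.5 (median 30.3). The lowest of 70 libraries was 14-7-2 replicate 9 and the highest 14-7-0 replicate 4, which was also the shallowest library. No difference from sedentary was called, and the SEs of 0.15 to 0.21 on the log2 scale were larger than those of Cx3cr1 and Csf1r.

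The 3 chains did not keep a fixed ratio. C1qa relative to C1qb had a median ratio of 0.860 and ranged from 0.526 to 1.15 over 70 libraries, and C1qc relative to C1qb had a median of 0.685 and ranged from 0.402 to 0.962. The lowest C1qc to C1qb ratio was that of 14-7-2 replicate 9 and the highest that of 14-7-0 replicate 4.

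Trem2 and Tyrobp encode a lipid-sensing receptor and the adaptor that carries its signal. Trem2 had a CV of 22.4%. In sedentary mice it ranged from 6.84 to 15.7 FPKM with a median of 9.38, and in home cage mice from 7.07 to 12.3 (median 9.20). Runners of 14-0-0 had values from 5.84 to 15.6 (median 8.007), those of 14-7-0 from 8.10 to 17.8 (median 9.98) and those of 14-7-2 from 5.33 to 12.1 (median 9.71). Values from 7.68 to 11 (median 9.29) were found in 14-14-0 and from 6.03 to 11.5 (median 9.58) in 0-0-2. High values came from single libraries, sedentary replicate 4, 14-0-0 replicate 5 and 14-7-0 replicate 4, the 3 highest of all 70. Differences of Trem2 from sedentary lay between -0.18 and 0.09 on the log2 scale and were not called.

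Tyrobp had a CV of 14.8% and was above Trem2 in every library. Its level ranged from 26.7 to 43.5 FPKM with a median of 34.0 in sedentary and from 23.3 to 41.8 (median 34.96) in home cage mice. For 14-0-0 the values ran from 24.1 to 38.4 (median 33.6), for 14-7-0 from 19.5 to 42.8 (median 35.3) and for 14-7-2 from 18.0 to 39.1 (median 32.3). The remaining runners lay from 27.5 to 37.5 (median 34.6) for 14-14-0 and from 21.0 to 40.4 (median 33.0) for 0-0-2. In each of 14-7-0 and 14-7-2, 1 library lay far below the rest, replicate 4 and replicate 9. Log2 differences from sedentary were between -0.15 and 0.01, and none was called. The ratio of Trem2 to Tyrobp had a median of 0.286, and the highest, 0.911, was that of 14-7-0 replicate 4.

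Aif1 encodes Iba1, the calcium-binding protein by which microglia are usually stained, and was the lowest of the 10 genes. Sedentary libraries ranged from 3.44 to 6.14 FPKM with a median of 4.67 and home cage libraries from 3.87 to 6.82 (median 5.59). After running, the values were from 3.91 to 7.80 (median 5.28) in 14-0-0, from 3.83 to 9.25 (median 5.02) in 14-7-0 and from 4.17 to 6.55 (median 5.46) in 14-7-2. In 14-14-0 they lay from 3.62 to 7.58 (median 5.35) and in 0-0-2 from 3.85 to 6.47 (median 4.49). Its differences from sedentary lay between -0.01 in 0-0-2 and 0.20 in 14-7-0 on the log2 scale, with SEs of 0.11 to 0.15, and were not called.

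Against sedentary, few of these genes were called in any group. A call here means p below 0.05 before adjustment. In 14-0-0, 0 of 10 were called, against 6.11% of all genes tested called higher and 3.04% lower. In 14-7-0, 1 of 10 (Cx3cr1) was called higher, where 1.6% of all genes were called higher and 1.66% lower. In 14-7-2, 1 of 10 (Csf1r) was called lower, where 2.07% were higher and 2.32% lower. In 14-14-0, 0 of 10 were called, with 3.19% of all genes higher and 1.75% lower. In 0-0-2, 0 of 10 were called (1.14% higher and 1.23% lower), and in home cage mice 0 of 10 (1.22% higher and 1.08% lower). Cyber-T, the regularized test of the study's methods, called 0 of 10 in all 6. At an adjusted p under 0.05, limma called 0% of genes in each of the 6, although 140 to 794 genes had an unadjusted p under 0.05 in 1 direction. Cyber-T called 1 gene in 14-0-0 and 0 in the others after adjustment.

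The median log2 difference from sedentary was -0.12 for 14-0-0 and -0.11 for 14-7-2, and it was -0.07 for 0-0-2, in which all 10 genes were negative. It was -0.04 for 14-14-0 and -0.02 for home cage, and 14-7-0 had a positive one of 0.04. Over all genes tested the medians lay between -0.01 and 0.01. With the GC and length trend removed, the members' medians were -0.07 for 14-0-0, -0.05 for 14-7-2, -0.04 for 0-0-2 (8 negative and 2 positive), -0.03 for 14-14-0, 0.02 for home cage and 0.10 for 14-7-0, and 13 of the 60 differences from sedentary turned sign. When the fit included the choroid plexus score, the medians were 0.03 for 14-0-0, 0.01 for 14-14-0, 0.04 for home cage and 0.000354 for 0-0-2. These comparisons share the 10 sedentary libraries, so a high or low sedentary library moves all of them together. Bounds on a change differed by gene. For Cx3cr1 in 14-0-0 the interval of 2 SEs on either side of the log2 difference ran from -0.07 to 0.14. For C1qc it ran from -0.56 to 0.22, which leaves C1qc far less bounded.

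**Figure D2:**
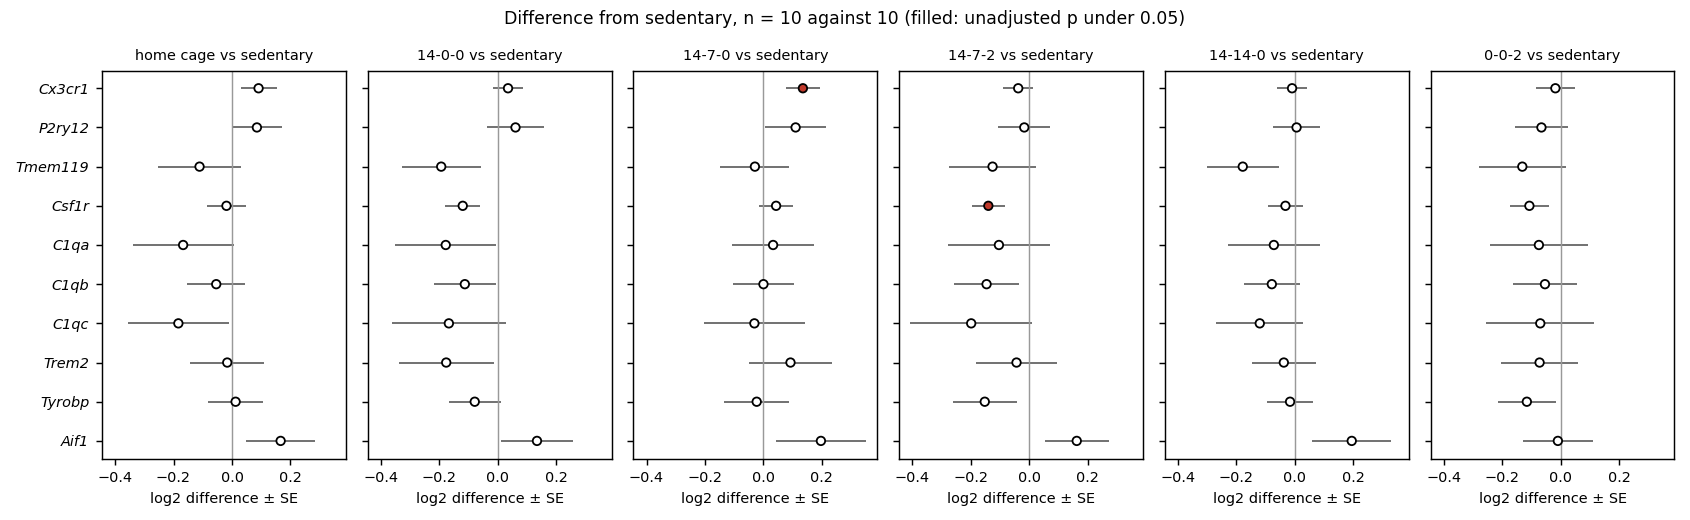
Log2 difference from sedentary (horizontal axis, ± SE, 10 against 10 libraries) of the 10 genes in 6 comparisons. Filled points had an unadjusted p under 0.05: Cx3cr1 in 14-7-0 and Csf1r in 14-7-2; the wide bars of C1qa, C1qc and Trem2 show their spread between libraries.

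The groups 14-7-2 and 14-7-0 had the same days of initial wheel access and of rest, and 14-7-2 had 2 days of renewed running. The study reports that the distance of the initial running varied between its groups, so the groups may also differ in this. All 10 genes were lower in 14-7-2, with log2 differences of -0.18 to -0.03 and a median of -0.14, against a median of 0.00 over all genes tested. Cx3cr1 had a log2 difference of -0.17 ± 0.05 (SE; p = 0.00382, adjusted p = 0.534, limma). All 10 libraries of 14-7-2 were below the 14-7-0 median of 16.3 FPKM, although the groups overlapped. Csf1r had a difference of -0.18 ± 0.05 (p = 0.00216, adjusted p = 0.493), with 9 of 10 libraries below the 14-7-0 median. These 2 of 10 genes were called lower, where 3.36% of all genes were called lower and 2.03% higher. No gene of the 12994 passed adjustment (0%), although 436 lower and 264 higher genes had an unadjusted p under 0.05. Cyber-T called the same 2 genes, with p = 0.0437 for Cx3cr1 and p = 0.0379 for Csf1r, and also passed 0 genes after adjustment.

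Both genes were lower in 14-7-2 within each harvest cohort. Cx3cr1 differed by -0.17 in cohort 1 (p = 0.034) and by -0.17 in cohort 2 (p = 0.0104, limma, 5 against 5 libraries). For Csf1r the values were -0.16 (p = 0.0559) and -0.205 (p = 0.0188). Leaving out each of the 20 libraries in turn, Cx3cr1 stayed between -0.192 and -0.144 and Csf1r between -0.205 and -0.158, with both called each time. Tyrobp differed by -0.13 ± 0.13, and without the shallow 14-7-0 replicate 4 by -0.215 (p = 0.0497), but without 14-7-2 replicate 9 by -0.0435 (p = 0.679) and in cohort 1 alone by 0.0663. The other 7 genes had differences of -0.17 (C1qc), -0.15 (C1qb), -0.14 (C1qa), -0.14 (Trem2), -0.13 (P2ry12), -0.10 (Tmem119) and -0.03 (Aif1), and none of them was called.

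Other microglial genes were lower in the same comparison. Of 24 other homeostatic microglia genes tested, 6 were called lower and 0 higher, with a median log2 difference of -0.11. Among them were Laptm5, a lysosomal membrane protein of blood and microglial cells (-0.21, p = 0.018), P2ry13, a nucleotide receptor (-0.18, p = 0.0189), Slco2b1, an organic anion transporter (-0.17, p = 0.0157), and Itgam, the integrin chain of complement receptor 3 (-0.14, p = 0.0278). Of 18 genes linked to disease-associated microglia, 4 were lower and 1, the lipoprotein lipase Lpl, named here after its values were seen, higher. The lower ones were Spp1, which encodes osteopontin (-0.51, p = 0.0044), the tetraspanin Cd9 (-0.21, p = 0.025), the lysosomal protein Cd68 (-0.17, p = 0.0435) and the lysosomal protease Ctsb (-0.11, p = 0.0341). Marker genes of other cells moved as well. Of 10 oligodendrocyte markers 6 were called lower, with a median of -0.32, and their sums ranged from 1569 to 3784 FPKM in 14-7-2 and from 2723 to 4351 FPKM in 14-7-0. Of 11 endothelial and pericyte markers 3 were lower, of 10 astrocyte markers 1, of 11 neocortex and thalamus markers 2 and of 12 choroid plexus markers 0. Of 13 markers of hippocampal pyramidal and granule cells 1 was lower, Wfs1 (-0.55, p = 0.00378), and 1 higher, Cpne4 (0.43, p = 0.0416). The part of these cells in the microglial values was not tested.

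Libraries differed in how strongly levels followed the GC content of transcripts, and the C1q chains followed this closely. For each library, a GC slope was computed as the change of log2 level, relative to the mean of 70 libraries, per SD of GC content over genes (6.29 percentage points, longest annotated transcript). It ranged from -0.35 in 14-7-2 replicate 9 to 0.28 in sedentary replicate 4. Replicate 9 had a negative slope in every group (-0.35 to -0.08), and replicate 8 a positive one in every group (0.02 to 0.14). The part of replicate number in the slopes was not tested. The C1q transcripts are rich in GC, at 59.5% for C1qa, 57.4% for C1qb and 57.5% for C1qc, as is Tmem119 at 59.1%, against a median of 49.7% over genes. P2ry12 is poor in GC at 38.6%. Cx3cr1 at 50.3%, Trem2 at 51% and Aif1 at 51.4% are near the median, and Csf1r at 54.5% and Tyrobp at 54.8% lie above it.

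With group means removed, Pearson's r with the GC slope over 70 libraries was 0.915 for C1qc, 0.876 for Tmem119, 0.841 for C1qa, 0.832 for Trem2 and 0.724 for C1qb. Spearman's rho was 0.874, 0.851, 0.815, 0.755 and 0.559 for these, each with a permutation p of 1e-05, the smallest that the resamples can give, and an adjusted p of 2e-05 over 10 relations. Csf1r followed less closely, with r = 0.478 and rho = 0.437 (adjusted p of 6.67e-05 and 0.00015). P2ry12 ran the other way, with r = -0.467 and rho = -0.429 (adjusted p of 0.000129 and 0.000343). For Aif1 r was -0.252 and rho was -0.339 (adjusted p of 0.0434 and 0.00509), whereas Cx3cr1 had r = -0.05 and rho = -0.12 (adjusted p of 0.661 and 0.35) and Tyrobp had r = 0.193 and rho = -0.02 (adjusted p of 0.123 and 0.884). The 5 strongest relations held within both cohorts, with r of 0.787 to 0.9 in cohort 1 and 0.757 to 0.947 in cohort 2, and without the 2 libraries of the most extreme slope (0.652 to 0.889). Tyrobp differed between cohorts, with r of -0.324 and 0.627, P2ry12 had -0.68 and -0.239, Csf1r 0.561 and 0.442, Aif1 -0.016 and -0.39, and Cx3cr1 -0.00278 and 0.0346. Without the same 2 libraries r was 0.446 for Csf1r, -0.48 for P2ry12 and -0.269 for Aif1. Such relations were common: 6.26% of all genes tested had an r of at least 0.8 with the GC slope, and 25.7% had -0.4 or less.

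**Figure D3:**
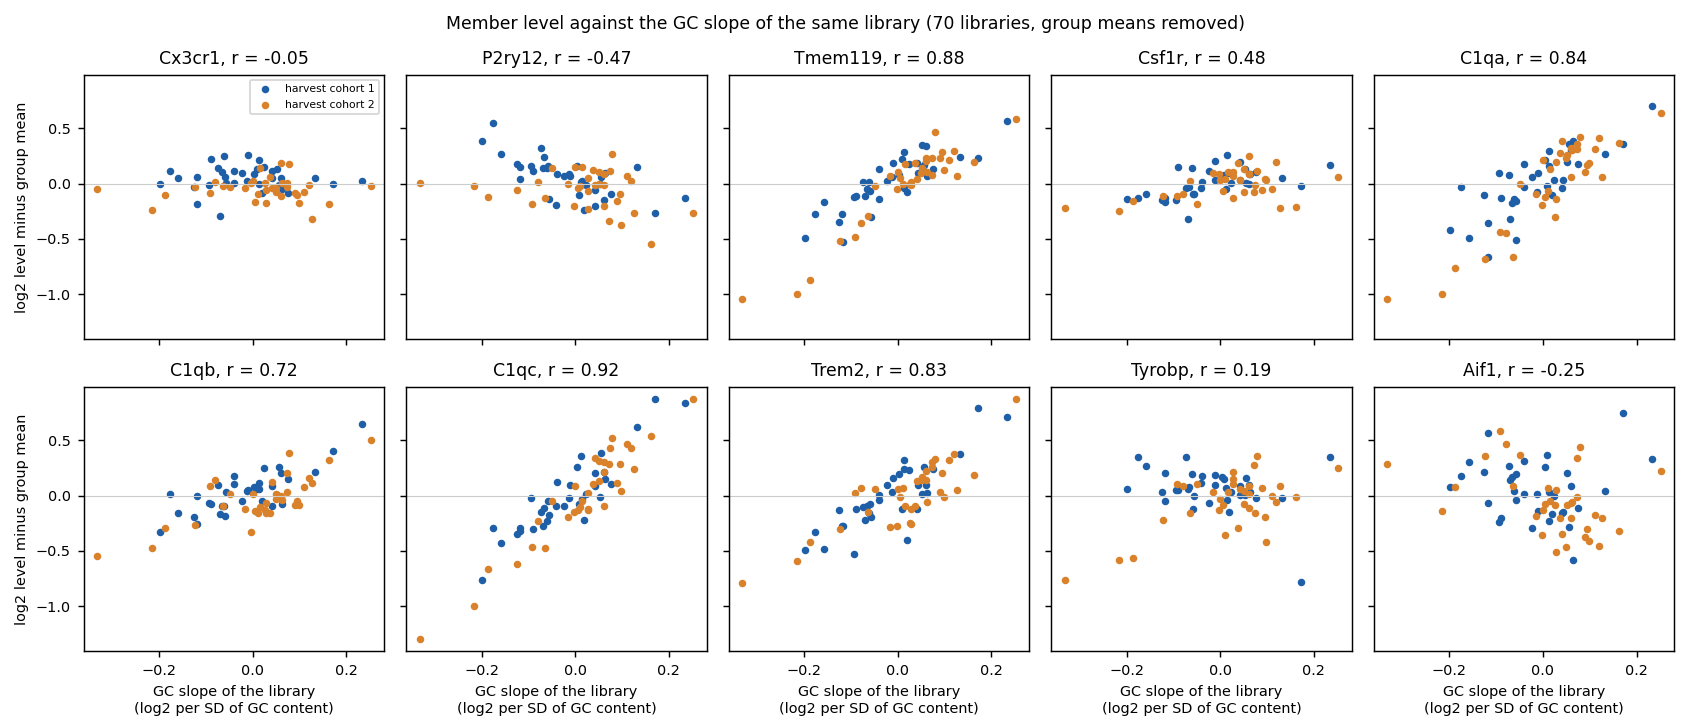
Log2 level of each gene minus its group mean (vertical axis) against the GC slope of the same library minus its group mean (horizontal axis, log2 per SD of GC content), for 70 libraries coloured by harvest cohort. C1qa, C1qb, C1qc, Trem2 and Tmem119 rose with the slope, P2ry12 fell, and Cx3cr1 stayed level (r = -0.05).

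Between mice of the same group the genes split in their covariation. Over the 45 pairs, r of the log2 values with group means removed had a median of 0.281 and ranged from -0.277 to 0.902, while over all pairs of genes tested the median was -0.00361. It was at least 0.7 in 10 of 45 pairs, all among C1qa, C1qb, C1qc, Trem2 and Tmem119, and in 1.71% of all pairs of genes. C1qa and C1qc had r = 0.902 (rho = 0.912), C1qa and Tmem119 r = 0.9 (rho = 0.826), and C1qc and Trem2 r = 0.866 (rho = 0.824). Each of these had an adjusted permutation p of 3.75e-05 for r and 4.09e-05 for rho over 45 pairs. Without the 2 libraries farthest from the median of the first gene of the pair, r was 0.871, 0.866 and 0.84. Within cohorts 1 and 2, r was 0.8 and 0.957 for C1qa with C1qc, 0.83 and 0.932 for C1qa with Tmem119, and 0.866 and 0.881 for C1qc with Trem2. Cx3cr1 and Csf1r formed a second pair, with r = 0.606 and rho = 0.494 (adjusted p of 3.75e-05 and 7.5e-05), 0.628 and 0.658 within cohorts and 0.534 without 2 libraries. P2ry12 was lowest with Trem2, with r = -0.277 and rho = -0.176 (adjusted p of 0.0385 and 0.218), and this was -0.468 in cohort 1, -0.0918 in cohort 2 and -0.238 without 2 libraries. Trem2 and its adaptor Tyrobp had r = 0.189 and rho = 0.0915 (adjusted p of 0.163 and 0.537), with -0.328 in cohort 1, 0.616 in cohort 2 and 0.0172 without 2 libraries. The mean log2 level of 10 astrocyte markers had r = 0.788 with Tmem119, 0.745 with C1qa and 0.605 with C1qc. It had 0.492 with Trem2 and 0.475 with C1qb. For 24 other homeostatic microglia genes r was 0.563, 0.482, 0.525, 0.528 and 0.645 in the same order. For 12 choroid plexus markers r was -0.477, -0.512, -0.504, -0.508 and -0.422. The part of other cells in the covariation was not tested.

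When a trend in GC content and transcript length was removed from each library, the split narrowed. The trend was a quadratic in both, fitted over the 12927 tested genes with an annotated transcript (99.5%). The median r over 45 pairs was then 0.379, and 4 pairs were below 0 in place of 10. C1qa and C1qc had r = 0.671, C1qb and C1qc 0.345 in place of 0.814, and P2ry12 and Tmem119 0.581 in place of -0.142. Cx3cr1 and Csf1r changed little, from 0.606 to 0.692. C1qc and Trem2 still had r = 0.806, and both still followed the GC slope, with r of 0.8 and 0.795, whereas r with the slope was 0.452 for C1qa, 0.411 for Tmem119 and 0.022 for C1qb. The cause of this difference was not tested. For Trem2, GC content and length were those of its longest annotated transcript, of 4784 bases. If shorter transcripts are the ones expressed, the trend may be removed incompletely for this gene.

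**Figure D4:**
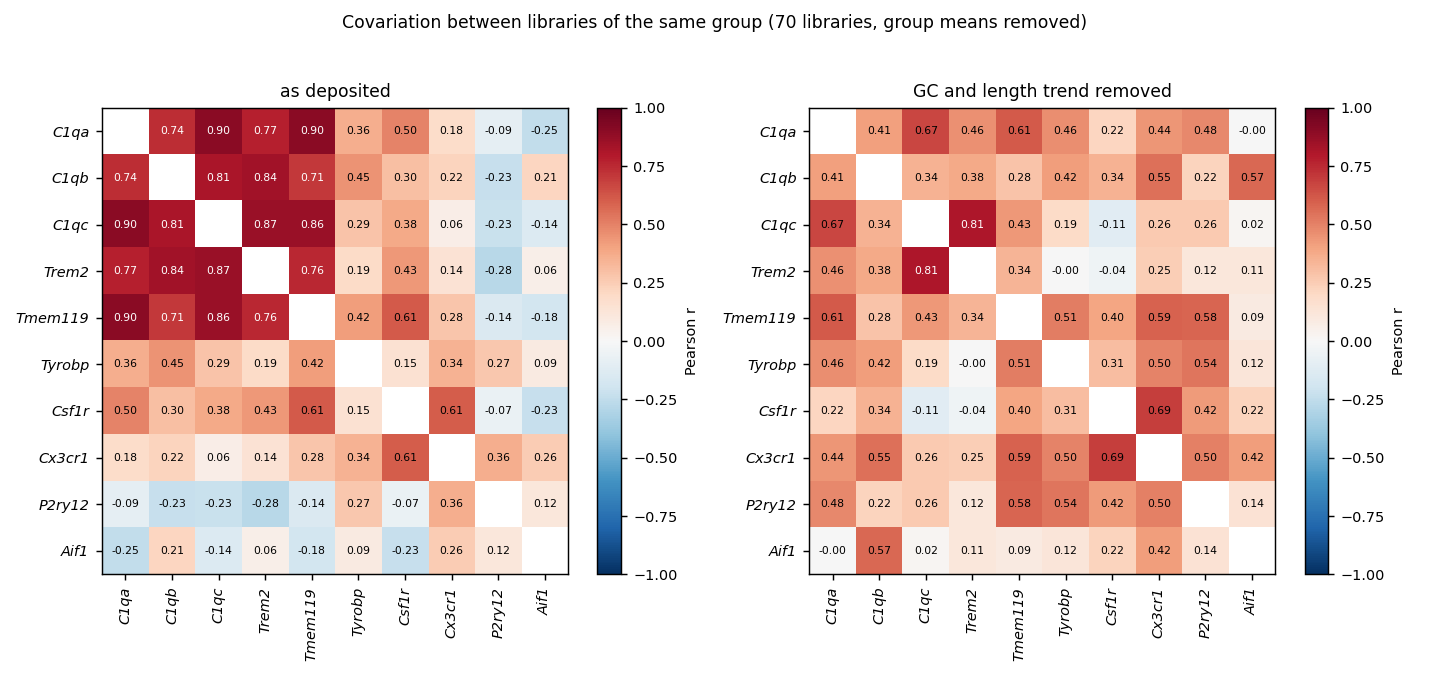
Pearson r between the 10 genes over 70 libraries with group means removed, from the FPKM as deposited (left) and with the GC and length trend of each library removed (right). The block of C1qa, C1qb, C1qc, Trem2 and Tmem119 on the left, with r from 0.71 to 0.90, weakened on the right, and P2ry12 had a positive r with all 9 other genes on the right, against 3 on the left.

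The 10 other genes most like the members, by r with the mean of their standardized values over 70 libraries, were Arf1, Spsb3, Selplg, Pmm1, Rpsa, Mzt2, Prkcz, Efna3, Taldo1 and Mcrs1, with r of 0.812 to 0.837. Of these, Selplg, the P-selectin ligand, is a gene of microglia. With the GC and length trend removed, the 10 were Arpc1a, Ctss, Dmtn, Arpc3, Prdx6, Ube2h, Prkcz, Fcrls, Acsbg1 and Psma1, with r of 0.702 to 0.796, and 1 gene (Prkcz) was in both. Ctss, a lysosomal protease, and Fcrls, an Fc receptor-like protein, are microglial genes.

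With the trend removed, more of the 10 genes were called between 14-7-2 and 14-7-0. Then 6 of 10 were called lower, where 5.6% of all genes were called lower and 2.69% higher. Tyrobp differed by -0.24 ± 0.09 (p = 0.0121), C1qb by -0.18 ± 0.07 (p = 0.0238), Csf1r by -0.17 ± 0.05 (p = 0.00121) and Cx3cr1 by -0.17 ± 0.05 (p = 0.00384). C1qa differed by -0.17 ± 0.08 (p = 0.0427) and P2ry12 by -0.14 ± 0.06 (p = 0.0241), and all 10 remained negative. The smallest adjusted p among them was 0.303, so none passed adjustment. Of the other homeostatic microglia genes 7 of 24 were then called lower, and of the oligodendrocyte markers 8 of 10. Endothelial and pericyte markers had 5 of 11 lower, astrocyte markers 3 of 10, and pyramidal and granule cell markers 2 of 13 lower and 2 higher. In the comparison of 14-7-0 with sedentary, the same step gave 2 of 10 called higher, Cx3cr1 (0.14, p = 0.0179) and C1qa (0.17, p = 0.0454), where 2.56% of all genes were called higher and 1.77% lower, and all 10 log2 differences were above 0. In 14-7-2 against sedentary, Csf1r was no longer called (-0.09, p = 0.0546).

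**Figure D5:**
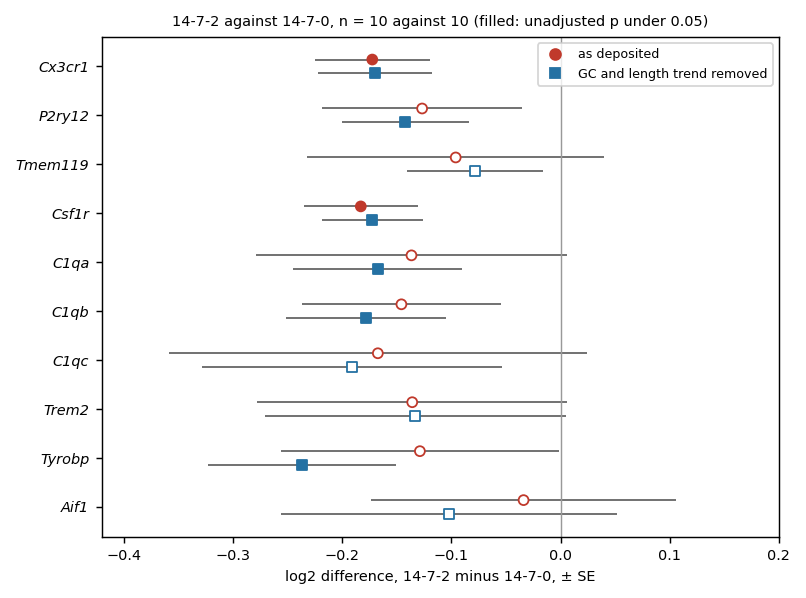
Log2 difference of the 10 genes between 14-7-2 and 14-7-0 (± SE, 10 against 10 libraries), from FPKM as deposited (circles) and with the GC and length trend of each library removed (squares). All points lay below 0; 2 circles and 6 squares are filled (unadjusted p under 0.05), and the SEs of P2ry12, Tmem119 and C1qa were smaller with the trend removed.

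Some of the genes also differed between the harvest cohorts. With group as a covariate, 3 of 10 genes were called lower in cohort 2, where 8.29% of all genes were lower and 3.58% higher, and 0.585% passed adjustment. Cx3cr1 ranged from 13.02 to 19.8 FPKM with a median of 15.8 in cohort 1 and from 11.9 to 17.7 with a median of 14.9 in cohort 2. It differed by -0.10 ± 0.03 (SE; p = 0.000752, adjusted p = 0.0698, limma) and was lower in cohort 2 in 7 of 7 groups. P2ry12 differed by -0.12 ± 0.04 (p = 0.00901) and was lower in 6 of 7 groups, and Tyrobp by -0.12 ± 0.05 (p = 0.0275) and was lower in 5 of 7. Of the other homeostatic microglia genes 7 of 24 were lower and 1 higher, among them Ctss (-0.15, p = 0.000401) and Fcrls (-0.12, p = 0.000568). With the GC and length trend removed, 3 genes were called lower (Cx3cr1, C1qb and Tyrobp), where 5.73% of all genes were lower and 4.77% higher, and P2ry12 was not (-0.05, p = 0.151). Of the 24 homeostatic genes 4 were then lower and 0 higher. No effect of a group on a member differed between cohorts by the test of the interaction over 7 comparisons, where the smallest of 70 unadjusted p was 0.0812 and the smallest adjusted p 0.953.

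Across all 7 groups at once, with cohort as a covariate, Cx3cr1 (p = 0.0148, adjusted p = 0.459) and Csf1r (p = 0.0268, adjusted p = 0.529) differed by limma's F test. This was 2 of 10 genes, where 7.89% of all genes were called and 0.239% passed adjustment. For the other 8 genes p was between 0.349 and 0.893.

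Around the 10 genes, their ligands and partners were well expressed. Cx3cl1, fractalkine, had a mean of 213 FPKM and Il34, a ligand of Csf1r, 24.6 FPKM, above the other Csf1r ligand Csf1 at 6.76 FPKM. Csf1 was called lower than sedentary in 14-0-0 (-0.15, p = 0.0328) and higher in home cage (0.15, p = 0.0321). The first was lost with the GC and length trend removed (p = 0.105) and without sedentary replicate 6 (p = 0.053), and the second when the fit included the choroid plexus score (p = 0.0955). Tgfbr2, a receptor for TGF-beta, was called higher in 14-0-0 (0.21, p = 0.0261), 14-14-0 (0.36, p = 0.00209) and home cage (0.26, p = 0.00151), the groups in which choroid plexus markers were called higher. When the choroid plexus score was put into the fit, its p was 0.57, 0.111 and 0.0187. Of the 19 ligands and partners tested, the counts called higher were 2, 1 and 2 in these groups, and lower 1, 0 and 0. None of the 19 was called in 14-7-0, 14-7-2 or 0-0-2, although with the trend removed 1 was lower in 14-7-2.

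Levels of the other complement genes differed widely. Of 44 in the table, 22 reached the minimum mean and were tested. The highest was Clu, clusterin, a regulator made by many brain cells, at 546 FPKM, and the complement-related neuronal proteins Sez6 and C1ql3 had 48.6 and 80.4 FPKM, above the means of all 10 genes described here. C3, the central component, had a mean of 0.381 FPKM, C2 0.362 FPKM and C1ra, a protease that binds C1q, 0.494 FPKM, all below the minimum mean, while C4b had 4.92 FPKM and the integrin chain Itgb2 of complement receptor 3 had 1.83 FPKM. In 14-0-0, 4 of 22 were higher. They included the regulators Cd59a, which blocks the membrane attack complex (1.33, p = 0.00141), Cd55, which speeds the decay of convertases (0.67, p = 0.000922), and the C1 inhibitor Serping1 (0.44, p = 0.00937). In 14-14-0, 4 of 22 were also higher, and these 3 regulators were among them, with log2 differences of 1.28, 0.65 and 0.62. Cd59a ranged from 2.68 to 23.4 FPKM in 14-0-0 and from 1.73 to 4.70 FPKM in sedentary. The choroid plexus sum ranged from 39.0 to 16266 FPKM in 14-0-0 and from 26.2 to 381 FPKM in sedentary. With that score as a covariate, none of the 3 was called in either group (p of 0.133 to 0.516 in 14-0-0 and 0.137 to 0.757 in 14-14-0). In home cage, 2 of 22 were higher, among them Serping1 (0.48, p = 0.00106), and 1 was lower, Sez6 (-0.25, p = 0.0202), which was not called with the trend removed (p = 0.0839). In 14-7-2 against 14-7-0, 2 of 22 were lower: Clu (-0.25, p = 0.00367), and Vtn, vitronectin (-0.28, p = 0.0291).

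Most inflammatory genes were too low to test. Of 22 inflammatory and interferon genes, 9 were tested, and Tnf, Il6, Il1b and Ccl2 had means of 0.0298, 0.0465, 0.101 and 0.0975 FPKM. Of the 9, none was called in the 5 running groups or in 14-7-2 against 14-7-0. With the GC and length trend removed, 1 was lower in 14-0-0 and 1 higher in 14-14-0. In home cage mice Nfkbia, the NF-kappaB inhibitor that is itself induced by activity and stress, was lower than in trained sedentary mice (-0.44, p = 0.000532), and Oasl2, an interferon-induced gene, was higher (0.41, p = 0.0287). Nfkbia ranged from 7.68 to 11.7 FPKM (median 9.13) in home cage and from 9.51 to 16.4 FPKM (median 13.1) in sedentary, with overlap.

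Gpnmb, a glycoprotein of phagocytic cells, was the gene of the disease-associated list called most often; it was singled out after its values were seen. It ranged from 1.20 to 2.95 FPKM (median 2.07) in sedentary and from 1.54 to 2.59 (median 2.15) in home cage. It ranged from 1.79 to 4.54 (median 3.18) in 14-0-0, from 2.08 to 3.25 (median 2.49) in 14-7-0 and from 1.57 to 3.86 (median 2.91) in 14-7-2. In 0-0-2 it ranged from 1.28 to 3.84 (median 2.97) and in 14-14-0 from 1.61 to 2.82 (median 2.37). It was called higher than sedentary in 14-0-0 (0.67 ± 0.18, p = 0.00142), 0-0-2 (0.50 ± 0.19, p = 0.014), 14-7-2 (0.50 ± 0.17, p = 0.00708) and 14-7-0 (0.34 ± 0.14, p = 0.0281), but not in 14-14-0 (0.18 ± 0.15, p = 0.229) or home cage (0.06 ± 0.15, p = 0.687). All of these share the sedentary libraries, and the smallest adjusted p was 0.279. The 4 calls held when the fit included the choroid plexus score (p of 0.00282 to 0.0298), and without sedentary replicate 6 the p for 14-7-0 was 0.0567. Others of the list called in 14-0-0 were Ctsl (0.31, p = 0.00123), Ctsb (0.16, p = 0.0074) and Ctsd (0.28, p = 0.0227), lysosomal proteases, of 6 higher and 1 lower among 18 tested, in the comparison with sedentary that had the most calls over all genes (6.11% higher and 3.04% lower). Adjusted for the choroid plexus score, p was 0.151, 0.0498 and 0.928 for these. Of the 24 other homeostatic microglia genes, 1 was higher and 1 lower in 14-0-0, 1 was lower in 14-7-2, 1 was lower in 0-0-2 and none was called in 14-7-0, 14-14-0 or home cage. With the trend removed the counts were 2 higher and 3 lower in 14-0-0, 2 lower in 14-7-2, 2 lower in 0-0-2 and 2 higher in 14-14-0.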

How the data were processed

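RNA from the dorsal hippocampus (RNeasy, TruSeq RNA libraries) was sequenced by the authors and aligned with ELAND v2e and Bowtie. Reads with several locations or more than 2 mismatches were removed, and the deposited FPKM were made with the Tuxedo protocol; the processing notes in the labels name Bowtie, Cuffnorm and mm10, without versions. Strand use and annotation are not given in the sources used here. Groups, exercise days and cohorts came from the labels; each library is 1 mouse.

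Values were tested as log2(FPKM + 0.1), so differences of low genes are understated, for the 12994 genes whose mean reached 1 FPKM. Each pair of groups was fitted alone with limma 3.58.1 (R 4.3.3, trend, two-sided), with Benjamini-Hochberg adjustment over all genes tested. Members, lists and comparisons were chosen with earlier results of these data known. Named genes are the members and, per list and comparison, up to 4 called genes of smallest p; 1 gene of the complement list is not reported here. Alternatives were a pseudocount of 1, other minimum means, scaling by the median ratio or quantiles, a joint fit, covariates, Cyber-T, single cohorts and left-out libraries; removal of the GC and length trend, and leaving out sedentary replicate 4 and single libraries of 14-7-2 and 14-7-0, were added after seeing the data. GC content came from the longest GENCODE vM21 transcript. Fits were tested on simulated data. Python 3.11.15 and matplotlib 3.10.9 were used for correlations and plots. Depth is unknown, so no counting interval is given. Same-numbered libraries of 2 groups did not deviate together in every pair, so numbers were not treated as pairing. Those numbered 9 did in every comparison, with r of 0.27 to 0.499, so some numbers may share a source of variation that the main fits leave in.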

Additional observations from a re-analysis of the deposited data

Results flagged for a closer look

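Of 70 sets of 10 libraries (10 genes in 7 groups), 12 had 1 library far from the others by Dixon's test, where chance gives about 1 in 20. The 12 came from 5 libraries. In 14-7-2 replicate 9, the library with the lowest GC slope (-0.35), Tmem119 was 4.49 FPKM (other 9 at 10.2 ± 0.879), C1qa 16.4 FPKM (37.1 ± 5.25), Trem2 5.33 FPKM (9.94 ± 1.21) and Tyrobp 18.0 FPKM (32.7 ± 2.99). In 0-0-2 replicate 9 (slope -0.21), Tmem119 was 4.61 FPKM (10.1 ± 1.25) and C1qa 17.2 FPKM (37.7 ± 4.75). In 14-0-0 replicate 5 (slope 0.23), C1qb was 57.5 FPKM (39.2 ± 3.42) and Trem2 15.6 FPKM (8.08 ± 1.81). In sedentary replicate 4, with the highest slope (0.28), Trem2 was 15.7 FPKM (9.15 ± 1.32). In 14-7-0 replicate 4, the shallowest library (slope 0.16), C1qc was 55.7 FPKM (28.6 ± 3.82), Trem2 17.8 FPKM (9.70 ± 1.46) and Tyrobp 19.5 FPKM (35.8 ± 3.45). The part of GC content and depth in these values was not tested.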

How the results depend on the processing

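Counts of the 10 genes called moved as follows. Counts over all genes are in brackets. In 14-0-0, 1 was called with median ratio scaling (1172 of 12994) and 1 without sedentary replicate 6 (1342 of 12994), in place of 0. In 14-7-0, 2 were called with the replicate block (659 of 12994) and 2 with the GC and length trend removed (560 of 12927), in place of 1. There, 0 were called by Cyber-T, in cohort 1 alone, in cohort 2 alone, at p under 0.01 and without sedentary replicate 6. In 14-7-2, 2 were called with the replicate block (763 of 12994), in place of 1. Here 0 were called adjusted for the choroid plexus score, by Cyber-T, in cohort 1 alone, in cohort 2 alone, at p under 0.01 and with the trend removed. With the replicate block 1 was called in 14-14-0 (915 of 12994), and in cohort 1 alone 1 in 0-0-2 (177 of 12994), in place of 0. In 14-7-2 against 14-7-0, 1 was called in cohort 1 alone (542 of 12994) and 6 with the trend removed (1072 of 12927), in place of 2. With single libraries left out, 2 to 3 were called. By the F test 0 were called at p under 0.01 (299 of 12994) and 3 with the trend removed (1507 of 12927), in place of 2 (1025 of 12994). Between harvest cohorts 2 were called at p under 0.01 (567 of 12994), in place of 3. With the trend removed, 14 of 80 member differences turned sign, 13 of them against sedentary and none between 14-7-2 and 14-7-0; none of the 14 was called on either scale. The members' median also turned in 14-7-0 in cohort 2 alone (-0.00409), and in home cage with quantile normalization (0.00953), in cohort 2 alone (0.0246) and without sedentary replicate 4 (0.0344). Of the single differences followed under every alternative, signs turned for C1qa in 14-7-0 by Cyber-T (-0.000796), in cohort 2 alone (-0.065) and without 14-7-0 replicate 4 (-0.00655, in a range of -0.00655 to 0.111 over the libraries left out), for Tyrobp in 0-0-2 in cohort 2 alone (0.0218) and for Tyrobp in 14-7-2 against 14-7-0 in cohort 1 alone (0.0663). The cause of these moves was not tested; cohorts alone have 5 against 5 libraries. The replicate block changed no other member count by over 1.5 times. Over all genes it called 659 in 14-7-0 in place of 208 higher and 216 lower, 562 in home cage in place of 159 higher and 140 lower, and 1882 in 14-0-0, where the choroid plexus score gave 744, in place of 794 higher and 395 lower. Replicate numbers gave a median correlation of same-numbered deviations of -0.01 to 0.158 per comparison. Leaving out sedentary replicate 6 and 14-7-0 replicate 4 kept 6 of the 10 genes most like the members, and removing the trend kept 1. Without read counts, the counting error of the lowest gene, Aif1, is not known.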
